A study of Mus musculus with 2 samples.

Results

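REV-ERBα binding in mouse T helper 17 (Th17) cells was examined where its peaks lie close together. The members are autosomal peaks of the deposited ChIP-seq peak list that stand in chains. A chain is a run of peaks whose neighbouring midpoints are at most 10000 bp apart, and only chains of at least 3 peaks were kept. This gave 860 peaks in 262 chains, 9.8% of the 8772 autosomal peaks and out of 8884 peaks in all. The other autosomal peaks were 2102 peaks in 1051 pairs and 5810 single peaks with no neighbour at that distance. The members were chosen by the positions of the peaks, so the closeness of the peaks is a description and not a finding.

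The study holds 1 chromatin immunoprecipitation sample made with an antibody to REV-ERBα and 1 input DNA control. Both came from wild-type primary Th17 cells in culture, and no other genotype, treatment or time is labelled. The ChIP library had 6390234 tags (aligned reads), and coordinates are in the mouse build mm9. With 1 ChIP sample there is no replicate check and no test between groups. Intervals are 95% intervals for counting error alone, computed as if peaks were independent.

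REV-ERBα, encoded by Nr1d1, is a heme-binding nuclear receptor of the circadian clock. It lacks the activation helix of most nuclear receptors and represses transcription through the NCoR corepressor and the deacetylase HDAC3. It binds the sequence AGGTCA with an A/T-rich stretch before it, an element shared with the ROR receptors, among them RORγt, the factor that defines Th17 cells. In liver and macrophages many REV-ERBα sites lie at enhancers, and enhancers often come in groups along a locus. Peaks were not assigned to genes and motifs were not examined here, so loci are given by position, and it was not tested which peaks come from REV-ERBα itself.

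Most chains were short. There were 202 chains of 3 peaks, 49 of 4, 10 of 5 and 1 of 8. A chain spanned 11.6 kb in the median, with quartiles of 9.21 and 14.8 kb, from the start of its first peak to the end of its last. The shortest chain of 3, on chromosome 11 from 101948661 to 101950678, spanned 2.02 kb with 13, 16 and 12 tags. Next came chromosome 5 from 152177453 to 152179933, at 2.48 kb with 14, 19 and 14 tags, and chromosome 10 from 43716045 to 43718699, at 2.65 kb with 16, 20 and 15. In all 3 the middle peak had the most tags, although counts of this size overlap within their intervals. The longest chains of 3 were on chromosome 5 from 73773406 to 73793039 (19.6 kb, 37 tags in all), chromosome 13 from 99706962 to 99725510 (18.5 kb, 50 tags) and chromosome 14 from 73833360 to 73851541 (18.2 kb, 46 tags). Among chains of 3, span and total tags were unrelated in rank (Spearman's rho 0.03 over 202 chains of 1 library).

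The chaining distance bears on which peaks are members. In 46 chains the largest gap was over 9000 bp, and these held a median of 53.5 tags. Had 11000 bp been allowed, 174 more peaks with a median of 18 tags would have joined. The 62 chains with a gap over 10000 bp so formed or extended would have held a median of 59.5 tags.

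Peaks in chains were of moderate strength. They held 16058 tags together, 10.8% of the tags in autosomal peaks when 1 single peak of 10556 tags on chromosome 2 is left out. The median member had 16 tags, with quartiles of 13 and 23. The median was 16 in pairs as well, with quartiles of 13 and 22, and 14 for single peaks, with quartiles of 12 and 19. Medians were higher in longer chains, at 16 tags in chains of 3, 17 in chains of 4, 20 in chains of 5 and 31.5 in the chain of 8. The values for 5 and 8 peaks rest on 10 chains and 1 chain. At least 30 tags were found in 90 members, 10.5% (8.50 to 12.7), where 6.81% of all autosomal peaks reached that count. Among pairs the share was 9.42% and among single peaks 5.32%. At most 12 tags were found in 21.05% of members (18.4 to 23.9), in 21.6% of peaks in pairs and in 34.7% of single peaks. Over all autosomal peaks this share was 30.2%.

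The strongest peaks of the list were outside the chains. No member had more than 50 tags. That limit is the count of the strongest member, so by its choice none of the 21 autosomal peaks above it is in a chain. Of these, 17 were single and 4 were in pairs. The share of peaks in chains was 2.49% at 7 to 9 tags (1.01 to 5.07), 7.34% at 10 to 12, 9.27% at 13 to 15 and 11.2% at 16 to 20. It was 11.9% at 21 to 30 tags, 17.9% at 31 to 40 (14.2 to 22.1) and 12.05% at 41 to 50 (5.93 to 21.04). At 41 to 50 tags the interval is too wide to set the share against the 9.8% over all autosomal peaks.

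**Figure D1:**
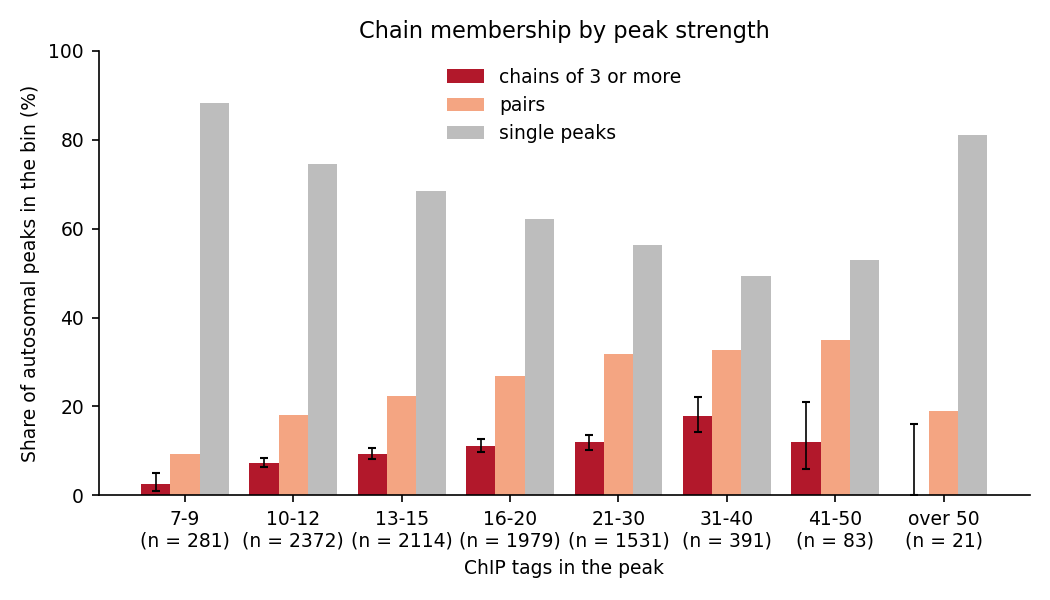
Share of autosomal peaks in chains of 3 or more, in pairs and single, by ChIP tags in the peak, with the number of peaks per bin; error bars are exact 95% binomial intervals of the chain share. The chain share goes from 2.49% in the weakest bin to 17.9% at 31 to 40 tags. None of the 21 peaks over 50 tags is in a chain, since 50 is the count of the strongest member.

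Enrichment over input did not run higher in chains. The deposited fold over input had a median of 9.96 in members, with quartiles of 6.35 and 16.4, and of 10.58 both in pairs and in single peaks. By size the median was 9.96 in chains of 3, 10.58 in chains of 4, 7.80 in chains of 5 and 9.03 in the chain of 8. At least 8-fold enrichment was listed for 494 members, 57.4% (54.1 to 60.8), where 61.4% of all autosomal peaks reached it. In 12.9% of members (10.7 to 15.3) the input was at its lowest listed value, 0.5 scaled tags, which sets the fold of such a peak. Among all autosomal peaks 16.7% were at that value, and among single peaks 17.9%. Within each of 5 ranges of tags the mean input of members was slightly above that of pairs and single peaks, a difference with no test behind it. With 16 to 20 tags it averaged 2.16 scaled tags in members, 1.93 in pairs and 1.92 in single peaks, and with 21 to 30 tags 2.49, 2.38 and 2.36. At least 8-fold enrichment in every member was listed for 44 of the 262 chains (16.8%). This share lies under that of single members because all peaks of a chain must reach it.

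Enrichment over the local region was lower in chains. Its median was 6.09 in members, 6.67 in pairs and 8.50 in single peaks. Values under 5-fold, close to the caller's limit of 4, were listed for 206 members (23.95%, 21.1 to 26.95), for 5.54% of single peaks and for 10.6% of all autosomal peaks. The local region covers 10000 bp, and the part of neighbouring peaks in the lower local fold was not tested. In members whose nearest peak was at most 3000 bp away the median local fold was 5.48, at 3000 to 6000 bp it was 6.08 and at 6000 to 10000 bp 7.31, still under the 8.50 of single peaks. The caller removed 1857 putative peaks by this comparison, and whether some of them lay in these chains cannot be read from the list.

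One peak seldom dominated its chain. The strongest peak held a median of 39.5% of the chain's tags, with quartiles of 35.9 and 43.6. In chains of 3 the median was 40.8%, where 3 equal peaks would hold 33.3% each. In chains of 4 it was 33.3% against 25%, in chains of 5 it was 29.1% against 20%, and in the chain of 8 it was 16.8% against 12.5%. The strongest peak is picked for its tags, so its share lies above the equal share even where counting error alone separates the peaks. Only peaks that passed the caller's thresholds enter these shares, and the part of the local filter in how even they are was not tested. It had a median of 23 tags, the second peak of the chain 17 and the weakest 12. A count of 23 has an interval of 14.6 to 34.5. That interval holds the count of 17 and overlaps the interval of a count of 12, 6.20 to 20.96.

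The strongest peak held 50% or more of the tags in 30 chains (11.5%, 7.86 to 15.9), all of them chains of 3. In 17 of these its share was at most 52%, and 8 further chains lay at 48 to 50%. A share of 50% is harder to reach in longer chains, where the equal share is lower. The strongest peak had at least 2 times the tags of the second in 15 chains (5.73%, 3.24 to 9.27). In pairs the stronger had at least 2 times the tags of the other in 114 of 1051 (10.8%, 9.03 to 12.9). These shares are not on equal terms, since the second peak of a chain is the highest of several others. In 131 chains, 50% of them, the strongest peak had at most 1.2 times the tags of the second, and in 27 chains the highest count was tied. The Poisson intervals of the strongest and the second peak were apart in 2 chains. Those of the strongest and the weakest were apart in 36 (13.7%, 9.81 to 18.5). In the other 226 chains the intervals of all peaks overlapped, so their order is not resolved.

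The chain most dominated by 1 peak was on chromosome 19 from 53611276 to 53621020. Its 3 peaks held 43, 11 and 9 tags in order of position, so that the first held 68.3% (55.3 to 79.4). The fold over input did not set this peak apart, at 9.10 against 11.64 and 9.52 for the others. Next was a chain on chromosome 1 from 145923191 to 145933606 with 36, 11 and 16 tags, then one on chromosome 14 from 62737345 to 62748837 with 35, 16 and 11. Another on chromosome 1, from 173896050 to 173912644, held 12, 16 and 35 tags, and one on chromosome 3 from 126353390 to 126364175 held 14, 11 and 31. Their strongest peaks held 57.1%, 56.5%, 55.6% and 55.4% of the tags, and in these 4 chains the lower bound of the share was under 50%. In all 5 the strongest peak stood at an end of the chain, as it did in 22 of the 30 chains with 50% or more of their tags in 1 peak (73.3%, 54.1 to 87.7, where positions alone give 66.7%).

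At the other extreme, 2 chains had equal counts throughout. The peaks on chromosome 11 from 86152469 to 86160451 held 12 tags each, as did those on chromosome 16 from 36932093 to 36941528. The chain on chromosome 9 from 88168114 to 88172347 had 16, 17 and 17 tags. The one on chromosome 12 from 76384597 to 76397204 had 14, 14 and 13, and another on chromosome 16 from 10772347 to 10785908 had 14, 13 and 14. Equal tags did not mean equal enrichment: on chromosome 16 from 36932093 the fold over input was 12.69, 4.23 and 12.69. With 12 tags each, the share of any 1 peak has an interval of 18.6 to 50.97%.

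**Figure D2:**
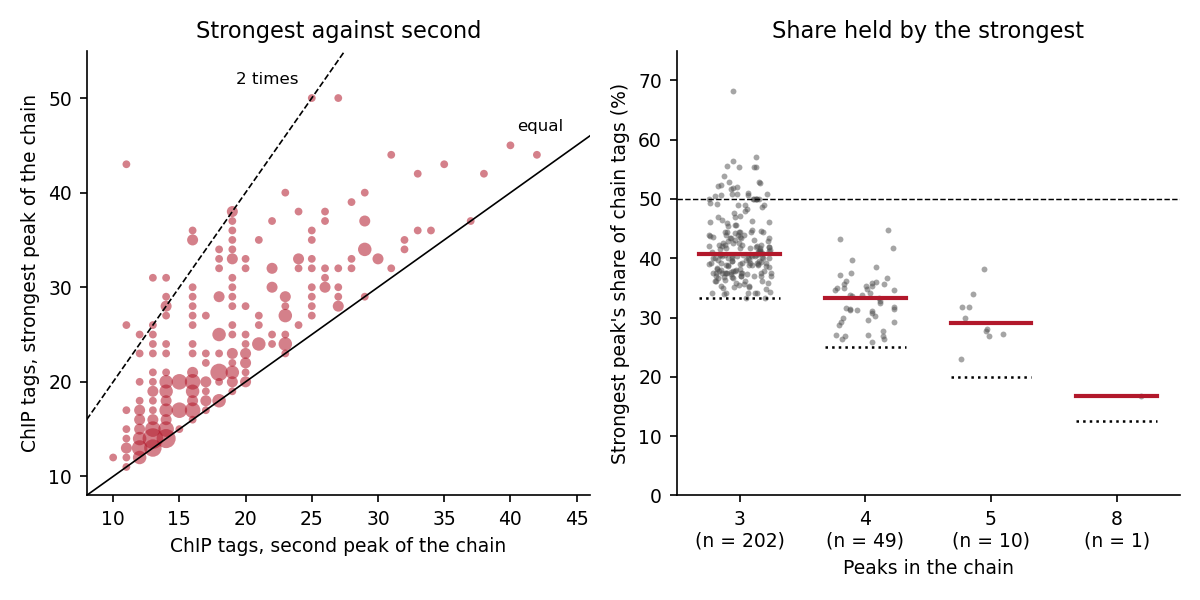
Left, ChIP tags of the strongest against the second peak of each of the 262 chains, with point area by the number of chains at that position and lines at equal tags and at 2 times. Right, the strongest peak's share of chain tags by chain size; points are chains, red lines medians, dotted lines the equal share and the dashed line 50%. In 15 chains the strongest has at least 2 times the tags of the second, and chains at or above 50% all have 3 peaks.

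The caller's other values did not always pick the same peak. In the 235 chains with a unique strongest peak by tags, this peak also had the highest score given by the caller in 209 (88.9%). It had the highest fold over the local region in 146 (62.1%) and the highest fold over input in 85 (36.2%, 30.02 to 42.7). In 53 chains (22.6%, 17.4 to 28.4) it had the lowest fold over input of its chain. With equal odds for all peaks and no ties, each share would be 33.3% in chains of 3 and 25% in chains of 4. The interval for the highest fold over input holds 33.3%. Each fold over input rests on few input tags.

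The strongest peak was found both inside chains and at their ends. It stood inside in 104 of the 235 chains (44.3%, 37.8 to 50.9), where equal use of all positions gives 37.4%, just under the interval. In chains of 3 the middle peak was the strongest in 71 of 183 (38.8%, 31.7 to 46.3, against 33.3%), the first in 63 and the last in 49. In chains of 4 an inner peak was the strongest in 26 of 43 (60.5%, 44.4 to 75.02, against 50%). In chains of 5 it was the third peak in 6 of 9 (66.7%, 29.9 to 92.5, against 20%), a position singled out after its values were seen. By the caller's score the inside share was 38.3%, against 37.7% from positions. Under 7 of 8 alternatives, among them both other chaining distances and the score, the share from positions lay inside the interval. Several of these hold fewer chains, such as 45 at 5000 bp, and have wider intervals. In all 8 the inside share was above that from positions, as in 44.5% against 42.1% at 20000 bp. A preference for inner positions is thus neither shown nor excluded. Inner peaks had a median of 18 tags and end peaks 16, while the local fold was 5.76 for inner peaks and 6.34 for end peaks. These medians pool chains of all sizes, and longer chains hold more inner peaks. In chains of 3 the median was 16 tags for first, 17 for middle and 15.5 for last peaks. In chains of 4 it was 18 for inner and 16 for end peaks, and in chains of 5 the values were 20 and 16.5. An inner peak had to pass the local filter with neighbours on both sides, and the part of that filter in its tag count was not tested.

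Neighbouring peaks of a chain had more alike tag counts the closer they lay. Over 170 neighbours at most 3000 bp apart, Spearman's rho between their tags was 0.65, and the larger count was 1.19 times the smaller in the median. Over 171 neighbours at 3000 to 6000 bp the values were 0.34 and 1.28, and over 257 neighbours at 6000 to 10000 bp they were 0.14 and 1.42. The same order held in pairs, with rho of 0.50, 0.39 and 0.24 over 421, 252 and 378 pairs. All points share 1 library, a peak can enter with both of its neighbours, and both peaks passed the same thresholds. The local fold changed with distance as given above. The part of the local filter in the likeness of close neighbours was not tested.

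**Figure D3:**
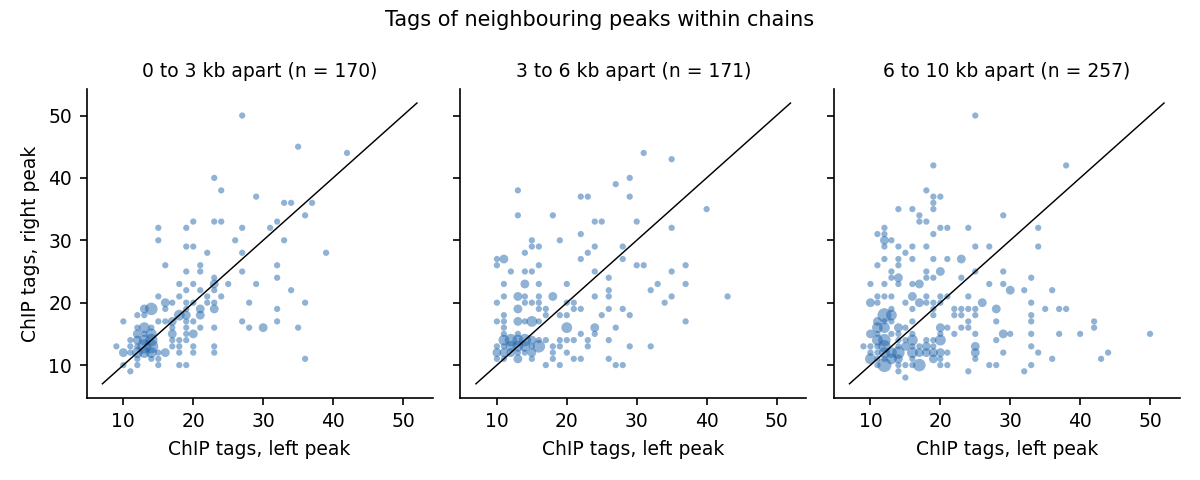
ChIP tags of the right against the left peak for neighbouring peaks within chains, by the distance between their midpoints; point area follows the number of neighbours at that position and the line marks equal tags. The points spread away from the line with distance, with Spearman's rho of 0.65, 0.34 and 0.14.

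Gaps in chains were wider than in pairs, which is a description only, since the gaps formed both the chains and the pairs. The median gap was 5.49 kb over 598 gaps in chains and 4.39 kb over 1051 pairs. Gaps of at most 3000 bp made up 28.4% of the first and 40.1% of the second. The narrowest gap in a chain was 0.633 kb, next to the caller's minimum distance of 612 bp. Only 10 chains had all their gaps within 3000 bp.

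The longest chain, of 8 peaks, lay on chromosome 5 from 53792424 to 53821655. In order of position its peaks held 37, 36, 34, 29, 37, 17, 13 and 17 tags, 220 in all (192 to 251). The first 3 stood within 1.58 kb, the fourth followed after 6.995 kb and the fifth after a further 4.08 kb, and the last 3 peaks, which are the weakest, came after gaps of 5.20, 7.48 and 3.59 kb. Its fold over input ran from 4.50 to 71.94, the highest value resting on the lowest listed input. The nearest other peak was 11.3 kb away, just beyond the chaining distance.

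A chain on chromosome 12 from 74977722 to 75002436 had the highest single count of any member. Its peaks held 24, 25, 50, 15 and 17 tags, 131 in all, and the third held 38.2% (29.8 to 47.1). The interval of that peak, 37.1 to 65.9, was apart from the interval of the second strongest, 16.2 to 36.9. With the chain on chromosome 19 it made up the 2 chains in which that was so. The nearest outside peak, 34.3 kb away, is itself strong, a single peak of 51 tags.

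In 3 further chains of 5 the tags were uneven along the chain. On chromosome 8 from 89376379 to 89395021 the first 3 peaks held 32, 33 and 36 tags within 3.96 kb, and the 2 after a gap of 8.60 kb held 11 and 16. On chromosome 1 from 93939012 to 93961086 the counts were 28, 29 and 40, then 15 and 14 after a gap of 8.62 kb. The chain on chromosome 11 from 116232701 to 116250871 had 27 and 28 tags in the second and the third peak, 2.31 kb apart, and 11, 10 and 12 in the others. These 3 were singled out after their values were seen. Over all 10 chains of 5, the count after the widest gap was lower than before it in 5, higher in 4 and equal in 1.

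The other chains of 5 varied in profile. On chromosome 15 from 9485664 to 9509737 the peaks held 20, 21, 32, 26 and 20 tags, and every one was at least 7-fold over input. Chromosome 12 held another from 88160196 to 88177809, with 14, 20, 20, 23 and 23 tags and the most even counts of the 10. Chromosome 9 from 63543249 to 63569889 had 10, 13, 21, 19 and 14 tags, and chromosome 14 from 20783397 to 20806481 had 11, 20, 14, 12 and 15. On chromosome 13, 2 chains were strongest at an end. Counts from 45946009 to 45963119 were 36, 20, 12, 13 and 25, with fold over input of 19.04 and 26.45 at the ends and 4.23 to 4.58 between. From 30812148 to 30840084 they were 16, 21, 14, 12 and 27. Every one of the 11 chains of at least 5 peaks had another peak within 50 kb, as had 189 of all 262 chains (72.1%). The same share for pairs and single peaks is not given here, so these counts are a description.

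**Figure D4:**
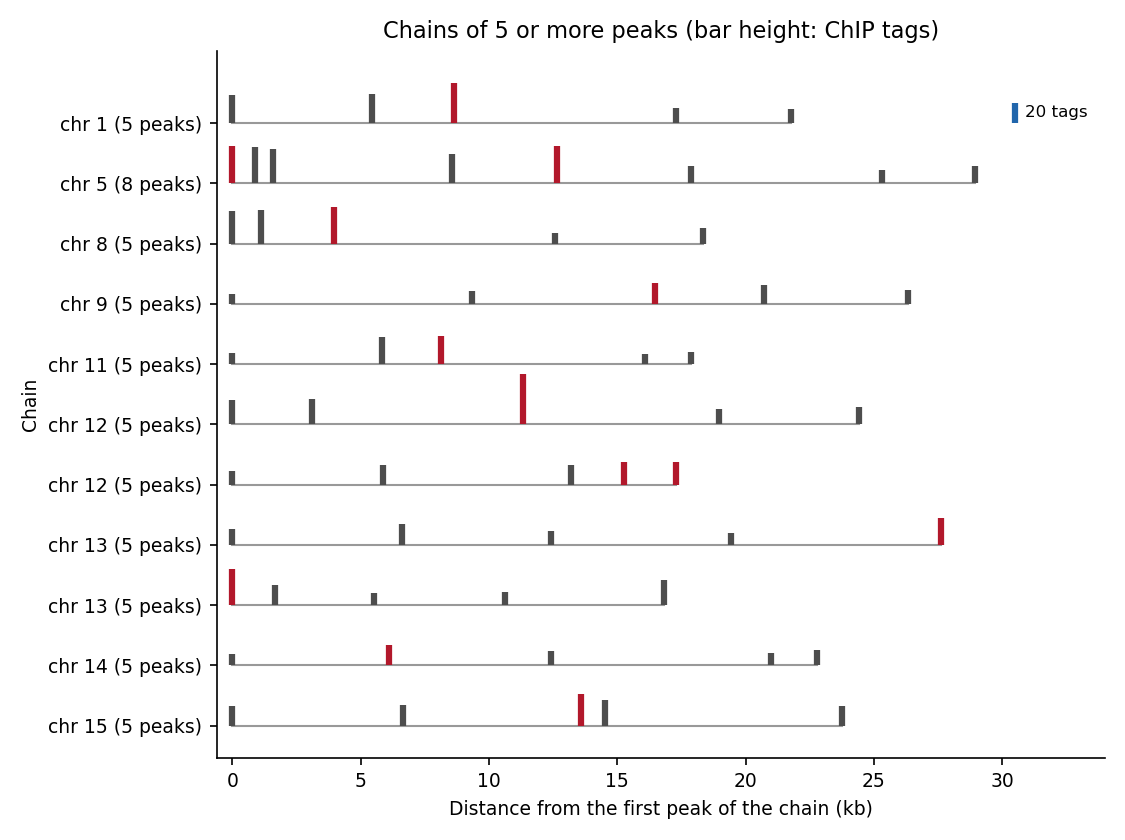
The 11 chains of at least 5 peaks, each drawn from its first peak, with bar height for the ChIP tags of each peak (blue bar, 20 tags) and the strongest peaks in red. The chain of 8 on chromosome 5 has its 5 strongest peaks, 29 to 37 tags, before its 3 weakest, and the third peak is the strongest in 6 chains of 5.

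Shorter chains could hold as many tags as those of 5. The chain with the most tags among those of 3 or 4 peaks was on chromosome 16 from 58696955 to 58703813. It held 40, 35 and 45 tags within 6.86 kb, 120 in all (99.5 to 143), at 7.41-fold to 15.87-fold over input. On chromosome 4 from 32478305 to 32492772, 4 peaks held 32, 19, 35 and 32 tags, and on chromosome 2 from 13328938 to 13338780 they held 29, 37, 26 and 21. The 4 peaks on chromosome 8 from 96963570 to 96982784 held 26, 20, 37 and 23 tags. Last of the 5 was chromosome 11 from 60926096 to 60936683 with 19, 42 and 44 tags, where the first peak was 4.02-fold over input and the last 46.55-fold. The intervals of all 5 totals overlap. Every member had at least 20 tags in 21 chains, and in 46 chains none had more than 15.

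Chains were found on all 19 autosomes. The share of a chromosome's peaks in chains was highest on chromosome 8, at 12.8% (9.62 to 16.7, 15 chains), then on chromosomes 13 (12.4%) and 12 (12.3%). It was lowest on chromosome 18, at 5.17% (2.70 to 8.86, 4 chains), then on chromosomes 17 (6.25%, 4.003 to 9.23) and 4 (6.89%, 4.85 to 9.45). Those 3 intervals lay under the 9.8% of all autosomal peaks, as did that of chromosome 6 (7.26%, 5.24 to 9.75), but peaks of a chain are not independent and the intervals are too narrow for that reason. The median member had 14 tags on chromosomes 7, 10 and 19 and 18.5 on chromosome 6, the lowest and highest of the 19.

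**Figure D5:**
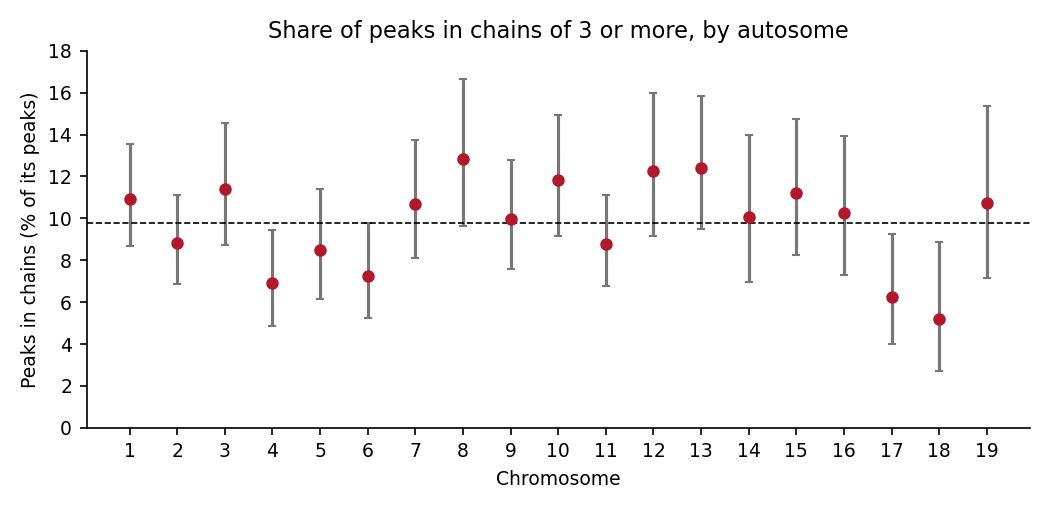
Share of each autosome's peaks that are in chains of 3 or more, with exact 95% binomial intervals; the dashed line marks the 9.8% of all autosomal peaks. Chromosome 18 is lowest at 5.17% and chromosome 8 highest at 12.8%.

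Some chains lay near each other. In 15 of 262 chains (5.73%) the next chain began within 100 kb. The same share for pairs and single peaks is not given here, so this is a description. The closest were 15.6 kb apart on chromosome 7, from 91284428 to 91298060 and from 91313648 to 91322339, with 48 and 38 tags. Of the chains of 5, that on chromosome 15 at 9485664 followed a chain of 3 by 21.5 kb, and both together held 174 tags in 8 peaks. The one on chromosome 8 at 89376379 followed a chain of 3 by 32.7 kb, with 177 tags in 8 peaks. On chromosome 13 the chain at 30812148 was followed after 83.1 kb by a chain of 4, and together they held 180 tags in 9 peaks. Of the windows of 1 Mb, 218 held at least 1 chain and 39 held 2 or more. Windows of 1 Mb with 3 chains were found on chromosome 8 from 125000001 and from 129000001, chromosome 9 from 123000001, chromosome 15 from 58000001 and chromosome 19 from 53000001. The last of these held the dominated chain of 43, 11 and 9 tags. Its 3 chains lay within 282 kb and took up 10 of its 24 peaks, whereas the 3 chains in the window on chromosome 15 took up 9 of 30.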

How the data were processed

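ChIP-seq of 1 REV-ERBα sample with 1 input sample was analysed from the authors' peak list. CASAVA 1.8.2, Bowtie, HOMER and mm9 come from what is listed per the submitters' processing notes; alignment settings: not given in the sources used here. Per the file headers, HOMER findPeaks used peaks of 306 bp at least 612 bp apart, a threshold of 9 tags and at least 4-fold enrichment and p of 1e-04 over input and over the surrounding 10000 bp. Total tags are deposited counts, without normalization. Among autosomal peaks they go down to 7, so the threshold of 9 tags was not set on these counts. The deposited input signal is in tags that the authors scaled to the depth of the ChIP. Fold values are the authors' ratios, p-values are the authors' and were not used, and the deposited score is the caller's peak height.

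Chains, tags and shares were computed with pandas 2.3.3, numpy 2.4.6 and scipy 1.17.1 in Python 3.11.15; matplotlib 3.10.9 drew the plots. The chaining was tested on simulated peaks. Counts have exact Poisson and shares exact Clopper-Pearson 95% intervals. No p-value was computed. Chains named are those of at least 5 peaks, the 5 with the most tags among chains of 3 or 4, the 5 with the largest and the 5 with the most even shares, and the 3 shortest and 3 longest of 3, plus chains near a chain of 5 and the closest 2. The members and lists were chosen with earlier results of these data known. Genes, motifs and sequences are not reported, since no mm9 genome or annotation was used here.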

Additional observations from a re-analysis of the deposited data

How the results depend on the processing

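Chaining distance and filters set how many peaks were members, and with 1 ChIP sample no replicate could be left out. Allowing 5000 bp gave 50 chains with 155 peaks, and 20000 bp gave 595 chains with 2195. At least 8-fold over input left 57 chains with 181 peaks, keeping peaks of at least the median tag count left 93 with 301, and chains of at least 4 numbered 60 with 254. The median tags of a member, 16 as reported, was 18 at 5000 bp, at 8-fold and in chains of at least 4, and 23 among the stronger peaks, where the filter itself raises it; the median score was 14. The median share of the strongest peak was 41.03% at 8-fold and 31.8% in chains of at least 4, where the equal share is lower. Chains with 50% or more of their tags in 1 peak made up 6% at 5000 bp, 6.45% among the stronger peaks and 0% in chains of at least 4. The strongest peak stood at an end in 62.2% of chains at 5000 bp (65.2% from positions alone) and 36.5% in chains of at least 4 (48.3%), against 55.7% as reported (62.6%). The median fold over input was 13.75 with the 8-fold filter and 8.46 without the peaks at the lowest input. The other 27 of 51 values changed by less than their intervals or by less than 1.5 times. Among them are the counts without the peaks at the lowest input, which left 185 chains with 601 peaks against 262 with 860. Added after seeing the data were the X chromosome (1 more chain, 263), peaks without the lowest input, tags less input, and the score for the position of the strongest peak. No paired analysis was possible because there is 1 ChIP sample.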
